A study of Arabidopsis thaliana with 12 samples.

Results

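CHLM and AT1G74470 are 2 nuclear genes of Arabidopsis thaliana whose enzymes act in the plastid on the way to chlorophyll. They were taken as the probes that name each gene alone, probe 2091 for CHLM (AT4G25080) and probe 2360 for AT1G74470, which makes 2 of the 3439 probes of the series and 2 of the 692 that name 1 gene. The values come from 12 arrays of total RNA, 6 of the mutant mak3 and 6 of wild type (WT), both of ecotype Columbia 0. Per the labels mak3 lacks proper function of a cytoplasmic N-acetyltransferase, the kind of enzyme that acetylates the amino end of other proteins, and the comparison asks which transcripts differ in the mutant. The sources used here do not give the allele, the number of lines, the tissue, the age or how the plants were grown. The mak3 label has no check by the mutated gene's own transcript here.

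Chlorophyll is assembled from a porphyrin ring and a long isoprenoid tail. In the ring branch, magnesium chelatase inserts magnesium into protoporphyrin IX, and CHLM (magnesium protoporphyrin IX methyltransferase) then transfers a methyl group from S-adenosylmethionine to the product, which readies it for closure of the last ring. AT1G74470 encodes geranylgeranyl reductase, which reduces the geranylgeranyl group to the phytyl group that becomes the tail of chlorophyll and also the side chain of tocopherol and phylloquinone. Both enzymes are best known from green tissue, where chlorophyll is made for the light-harvesting antenna and the photosystems.

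Within each genotype, array 1 paired with 2, 3 with 4 and 5 with 6, and the members of such a pair were close to repeat readings of 1 sample (r = 0.976 to 0.993 across probes, against 0.841 to 0.940 for other arrays of the same genotype). Their mean was therefore used, giving 3 samples for each genotype, named here by their array pair. Nothing in the labels says that these samples came from separate plants, so p-values measure only the spread between them, which may be technical. Intensities are on the authors' scale, where the mean of an array lay between 0.946 and 1.05 and its median between 0.420 and 0.605. With total RNA, fewer cells of a type and less RNA per cell cannot be told apart.

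CHLM gave a signal in the middle to upper range of each array, with little spread among the WT samples. On the mak3 arrays its deposited intensity was 0.586 at the lowest, 0.624 at the median and 0.734 at the highest, and on the WT arrays 0.666, 0.737 and 0.817. By sample, the mean intensity was 0.617, 0.727 and 0.599 in pairs 1-2, 3-4 and 5-6 of mak3, against 0.737, 0.741 and 0.742 in the same pairs of WT. All 3 mak3 samples were thus below all 3 WT samples as deposited, while single arrays of the genotypes overlapped. Over all probes, 8.23% had the 3 mak3 samples below the 3 WT samples and 1.4% had them above, on the deposited scale. The closeness of the WT means hides a wider spread of single arrays. The repeat readings of WT pair 5-6, 0.817 and 0.666, were 0.30 apart on the log2 scale after normalization, more than the means of any 2 WT samples.

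AT1G74470 was among the brighter probes, and its level followed the array pair far more than the genotype. Its deposited intensity was 1.52 at the lowest, 2.23 at the median and 2.66 at the highest on the mak3 arrays, and 1.495, 2.16 and 2.93 on the WT arrays. By sample, the mean was 1.60, 2.23 and 2.65 in pairs 1-2, 3-4 and 5-6 of mak3, against 1.55, 2.16 and 2.91 in WT. The genotypes overlapped over nearly their whole range. In both genotypes pair 1-2 held the lowest sample and pair 5-6 the highest. The repeat readings of this probe lay close together, from 0.01 to 0.13 apart on the log2 scale in the 6 samples. Both probes stayed well clear of 0 and of the upper limit of the scale near 100.

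**Figure D1:**
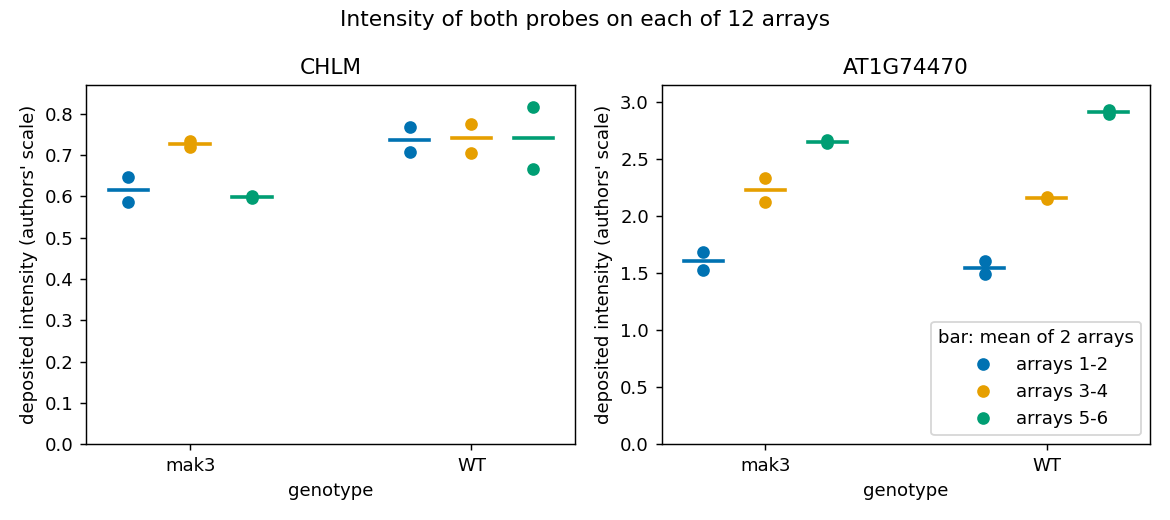
Deposited intensity (vertical axis, authors' scale) of CHLM and AT1G74470 on each of the 12 arrays, mak3 left and WT right, with points for single arrays, colours for array pairs and short bars for the mean of 2 arrays. The bars of CHLM lie between 0.599 and 0.727 in mak3 and between 0.737 and 0.742 in WT, and those of AT1G74470 between 1.60 and 2.65 in mak3 and between 1.55 and 2.91 in WT.

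The rank of each signal within its array shows how far the deposited differences go with the array as a whole. Ranks were counted from the brightest of the 3439 probes. They set signals of different probes side by side, which depend on the probe as well as on the transcript, so they say nothing of which transcript was more abundant. CHLM ranked from 931 to 1752 on the mak3 arrays (median 1037) and from 1027 to 1502 on the WT arrays (median 1198). The mak3 arrays of pair 1-2 gave the lowest ranks, 1752 and 1576, and those of pair 3-4 the highest, 931 and 960. In pairs 3-4 and 5-6 the mean rank of CHLM was nearer the top in mak3, at 946 and 1037, than in WT, at 1130 and 1288, although its deposited intensity was lower there in mak3. In pair 1-2 the mean rank was 1664 in mak3 and 1237 in WT.

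AT1G74470 ranked from 150 to 318 on the mak3 arrays (median 181) and from 122 to 255 on the WT arrays (median 185). It was brighter than 90.8% to 95.6% of the probes of a mak3 array and than 92.6% to 96.5% of those of a WT array. The mean ranks in pairs 1-2, 3-4 and 5-6 were 295, 181 and 151 in mak3, against 241, 185 and 123 in WT. Pair 1-2 held its lowest places in both genotypes.

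CHLM did not differ detectably between mak3 and WT, either after quantile normalization or with the values as deposited. On the normalized log2 scale it averaged -0.53 ± 0.28 in mak3 and -0.53 ± 0.06 in WT (SD, n = 3 each). The mak3 minus WT difference was 0.01 ± 0.16 (SE, n = 3 against 3, limma adjusted p = 1 over all probes). The 95% interval of this difference ran from -0.40 to 0.41, which spans a mak3 to WT ratio of 0.758 to 1.33. The sign of the mean is not settled: it was -0.20 ± 0.10 on the deposited scale (SE, n = 3 against 3, limma adjusted p = 0.754). On that scale all probes together had a median of -0.19.

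The near-zero mean of CHLM was made of differences that ran in opposite directions. In pair 1-2 it came to -0.30, where 17.3% of all probes had a lower difference, and in pairs 3-4 and 5-6 to 0.14 and 0.18, where 68.5% and 70.1% of probes had a lower one. After normalization the sample that stood apart was mak3 pair 1-2, at -0.84. The other mak3 samples were at -0.33 and -0.40, and those of WT at -0.55, -0.47 and -0.58. As deposited, mak3 pair 1-2 lay between the other mak3 samples, with log2 means of -0.70, -0.46 and -0.74 in pairs 1-2, 3-4 and 5-6. Without pair 1-2 the mak3 minus WT difference of CHLM was 0.16 (limma adjusted p = 0.514), and without pair 3-4 or 5-6 it was -0.06 and -0.08. Each of these fits rests on 2 samples a genotype.

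With the values as deposited, the CHLM difference was -0.26, -0.02 and -0.30 in pairs 1-2, 3-4 and 5-6. The median difference of all probes was 0.02, -0.15 and -0.44 in the same pairs. In pair 1-2 CHLM was thus lower in mak3 on both scales, and in the other pairs it was less lowered than the array as a whole. In the 24 probes around it by number the median normalized difference was -0.16, -0.02 and 0.18, of the same sign as that of CHLM in pairs 1-2 and 5-6. The part that position on the array has in the CHLM values was not tested, since probe number is not known here to follow position. Taking off a running median along probe numbers left the mean difference at 0.01.

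AT1G74470 did not differ detectably between the genotypes either, and the interval of its difference was wide in the fit that ignores the array pair. It averaged 0.996 ± 0.396 in mak3 and 1.13 ± 0.408 in WT on the normalized log2 scale (SD, n = 3 each). The mak3 minus WT difference was -0.13 ± 0.30 (SE, n = 3 against 3, limma adjusted p = 1), with a 95% interval from -0.90 to 0.64, or a mak3 to WT ratio of 0.534 to 1.56. With the array pair as a block the 95% interval was narrower, from -0.38 to 0.12, or a ratio of 0.770 to 1.09 (limma adjusted p = 0.486). By pair the difference was -0.19, 0.03 and -0.23 in pairs 1-2, 3-4 and 5-6. The direction depends on the scaling of the arrays: the difference was 0.21 after scaling the arrays to a common median. It was 0.03 with the running median along probe numbers taken off. On the deposited scale it was -0.01. The 24 probes around it had median differences of -0.11, -0.17 and -0.17 in the 3 pairs.

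Neither gene passed the test, so 0 of the 2 were higher and 0 lower in mak3, as were 0 of all 3439 probes in limma (0% in each direction). Before adjustment 135 probes (3.93%) had a p under 0.05 in limma, or 13.4% in the fit with the array pair as a block, and neither gene was among them. After normalization the genotypes overlapped for both genes, and 4.07% of all probes had every mak3 sample below every WT sample. On the normalized scale a difference of one sign in all 3 pairs was seen for 36.5% of all probes and for neither gene. As deposited, CHLM was lower in mak3 in all 3 pairs, and the share of all probes was not counted on that scale. The absolute difference of AT1G74470 was larger than that of 40.5% of the probes and that of CHLM larger than that of 5.15%.

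**Figure D2:**
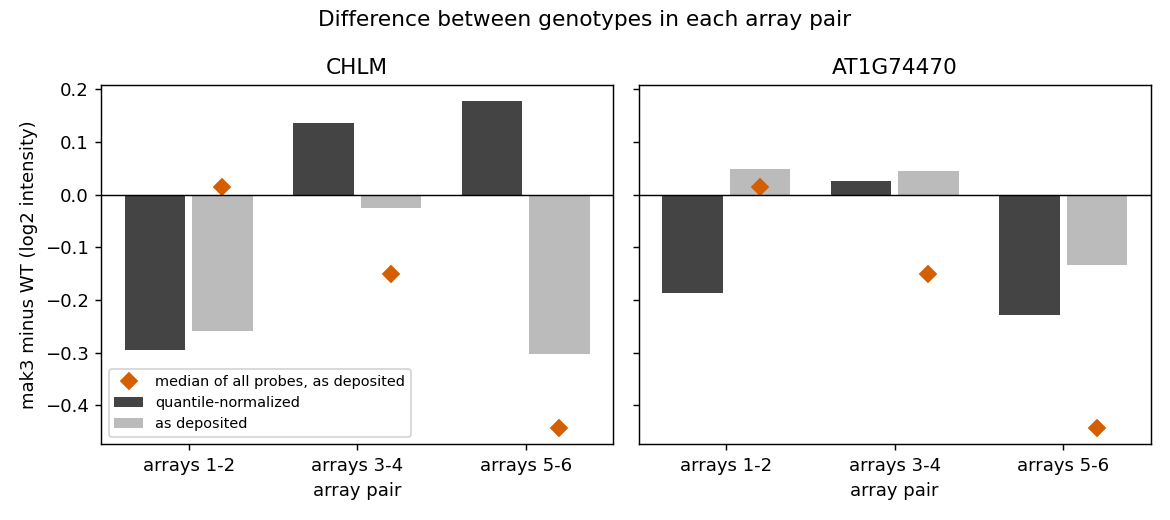
The mak3 minus WT difference (vertical axis, log2 intensity) of CHLM and AT1G74470 in each array pair, with dark bars for quantile-normalized values, light bars for values as deposited and diamonds for the median of all probes as deposited. CHLM lies at -0.30 in pair 1-2 after normalization and at 0.14 and 0.18 in the other pairs, and the diamonds fall to -0.44 in pair 5-6.

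The genotype differences of the 2 genes were also set against each other, since both enzymes serve 1 product. The difference of CHLM exceeded that of AT1G74470 by 0.14 ± 0.27 on the log2 scale (SE, n = 3 against 3). An exact two-sided permutation test over the 6 samples, which ignores the array pairs, gave p = 0.7, where 3 against 3 allows no p below 0.1. An exact two-sided sign-flip test over the 3 pairs gave p = 0.5, where 3 pairs allow no p below 0.25. By pair, this excess of CHLM was -0.11, 0.11 and 0.41 in pairs 1-2, 3-4 and 5-6. With the values as deposited, and after scaling the arrays to a common median, the excess was -0.18, so neither its sign nor its size is settled.

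The difference between array pairs was larger for AT1G74470 than its difference between genotypes. Pair 5-6 was above pair 1-2 by 0.77 in mak3 and by 0.81 in WT on the normalized log2 scale, a ratio of 1.71 and 1.76. Pair 3-4 was above pair 1-2 by 0.55 in mak3 and by 0.33 in WT. Averaged over the genotypes, the highest pair was 0.79 above the lowest, a 1.73-fold range, against a median of 0.55 over all probes. This range was wider than that of 71.7% of the probes, so many probes varied more between pairs. A range above the genotype difference was not particular to AT1G74470. For CHLM the range was 0.29 and the genotype difference 0.01. Over all probes the median absolute genotype difference was 0.17, against the median range of 0.55.

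An F test between pairs in limma, in a fit with genotype and pair that was added after the values were seen, gave an adjusted p = 0.0601 for AT1G74470 and 0.414 for CHLM. After adjustment limma called 1 of 3439 probes between pairs (0.0291%), and 39.9% were under 0.05 before adjustment, AT1G74470 among them and CHLM not. The range of 0.79 was 0.38 without pair 1-2 and 0.42 without pair 5-6. Both samples of pair 5-6 lay above both samples of pair 1-2 for AT1G74470, as for 32.7% of all probes.

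CHLM varied little between pairs. Its highest pair mean was 0.29 above its lowest, a 1.23-fold range that was wider than that of 20.7% of the probes. This range of CHLM was 0.091 without pair 1-2, 0.206 without pair 3-4 and 0.142 with the values as deposited. The 2 genotypes differed in this on the normalized log2 scale. Pair 3-4 was above pair 1-2 by 0.51 in mak3 and by 0.08 in WT. Pair 5-6 was above pair 1-2 by 0.44 in mak3 and 0.03 below it in WT. As deposited, the log2 means in pairs 1-2, 3-4 and 5-6 were -0.70, -0.46 and -0.74 in mak3. In WT they were -0.44, -0.43 and -0.44. Pair 5-6 of mak3 was thus not above pair 1-2 on the deposited scale. Whether the normalized contrast between genotypes exceeds chance was not tested, because each pair holds 1 sample of a genotype. The SD of repeat readings was 0.11 for CHLM and 0.06 for AT1G74470, against a median of 0.11 over all probes.

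**Figure D3:**
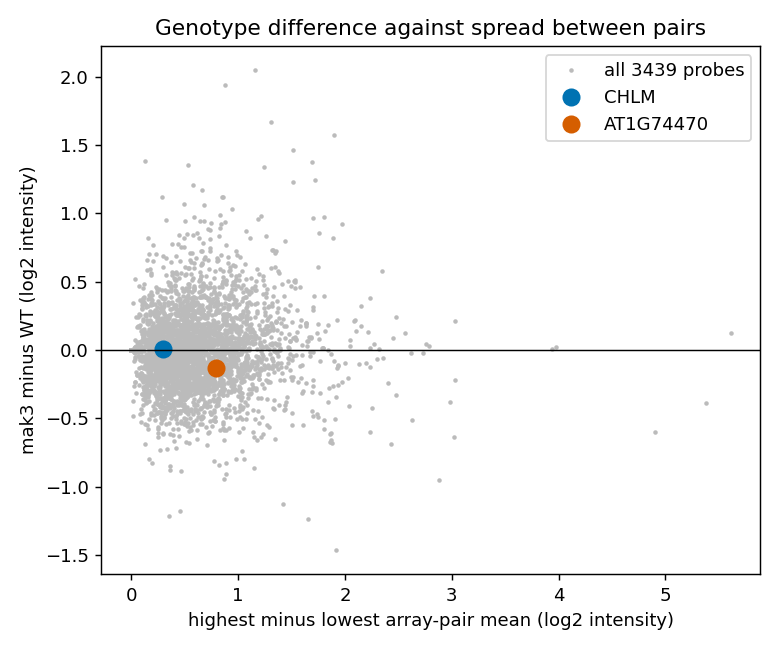
Spread between array pairs (horizontal axis, highest minus lowest pair mean, log2 intensity) and mak3 minus WT difference (vertical axis, log2 intensity) of all 3439 probes in grey, with CHLM in blue and AT1G74470 in orange. AT1G74470 lies at 0.79 across and -0.13 up, and CHLM at 0.29 across and 0.01 up, both within the cloud of other probes.

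Over the 6 samples the profiles of CHLM and AT1G74470 were only loosely alike, with Pearson's r = 0.554. Among the 665 other 1-gene probes with any variation, AT1G74470 took place 90 by likeness to CHLM, and CHLM took place 212 by likeness to AT1G74470. The genes most like CHLM were AT4G05030 (r = 0.966), AT2G26340 (r = 0.966) and DAL1 (r = 0.933). Each of them had its lowest value in mak3 pair 1-2, as CHLM did on the normalized scale. DAL1 was at -2.59 there and between -1.92 and -1.43 in the other 5 samples on the log2 scale. The genes most like AT1G74470 were AT3G55070 (r = 0.987), AT4G23110 (r = 0.978) and AT1G79080 (r = 0.977), all 3 highest in pair 5-6 of both genotypes. All of these genes were picked by their likeness over the same samples, so the shared highs and lows are no separate finding.

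Such likeness was more common for AT1G74470, with r above 0.9 for 41 of the 665 probes and below -0.9 for 69, against 5 and 6 for CHLM. These correlations describe 6 samples that share their array pairs, and with so few samples a high r arises easily among 665 probes. The mak3 minus WT differences of these 6 genes lay between -0.19 and -0.08, each with a limma adjusted p = 1.

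Few other genes of the pathway could be read. Of 92 genes in 8 lists for tetrapyrrole and chlorophyll synthesis, chlorophyll breakdown, isoprenoid and S-adenosylmethionine supply, tocopherol and the antenna, 7 had a 1-gene probe, CHLM and AT1G74470 among them. Of these 7, 3 were higher and 4 lower in mak3, 0 passed in limma, and none reached p under 0.05 before adjustment. With the array pair as a block, SIRB alone of the 7 was under 0.05 before adjustment, as were 13.4% of all probes, and it did not pass (limma adjusted p = 0.355). The median difference of the 7 was -0.13, which is the value of AT1G74470 itself, against 0.00 over all 3439 probes, 46.7% of which were higher. Without CHLM and AT1G74470, 2 of the other 5 were higher and 3 lower, with a median of -0.22. The ring branch after magnesium chelatase was represented by CHLM alone and the tail by AT1G74470 alone.

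Upstream of CHLM, HEMA3 (AT2G31250) belongs to the family of glutamyl-tRNA reductases, which open tetrapyrrole synthesis. Its deposited intensity was 0.974, 1.001 and 1.11 on the mak3 arrays and 0.964, 1.26 and 1.55 on the WT arrays (lowest, median and highest). The HEMA3 difference was -0.22 ± 0.20 (SE, n = 3 against 3, limma adjusted p = 1), with -0.00395, -0.30 and -0.36 in pairs 1-2, 3-4 and 5-6, and -0.07 after scaling the arrays to a common median. AT5G63290, of the HemN type of coproporphyrinogen oxidases, had the widest difference of the 7, at 0.66 ± 0.36 (SE, n = 3 against 3, limma adjusted p = 1). It was higher in mak3 in all 3 pairs, by 1.19, 0.18 and 0.60, and the highest of its 12 intensities, 2.46, was on a mak3 array. Its mak3 and WT samples overlapped: on the log2 scale mak3 was at 1.19, -0.03 and 0.19 in pairs 1-2, 3-4 and 5-6, and WT at 0.00, -0.21 and -0.41.

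On the side branches, SIRB (AT1G50170), which inserts iron to make sirohaem, was at -0.38 ± 0.54, with differences of -0.35, -0.26 and -0.52 in pairs 1-2, 3-4 and 5-6 (SE, n = 3 against 3, limma adjusted p = 1). With the array pair as a block its SE was 0.08. SIRB shared the order of pairs seen for AT1G74470, with -2.08, -1.52 and -0.72 in pairs 1-2, 3-4 and 5-6 of mak3 and -1.73, -1.26 and -0.20 in WT, a range between pairs of 1.45. AT1G78620 (VTE6), the phytyl phosphate kinase that feeds phytol into tocopherol and so uses a product that geranylgeranyl reductase makes, was at 0.14 ± 0.15, and at -0.08 with the values as deposited. For the antenna, which binds the finished pigment, LHB1B2 (AT2G34420) was at -0.36 ± 0.18 but at -0.02 after scaling the arrays to a common median. Quantile-normalized, LHB1B2 was at 2.81, 3.39 and 3.36 in pairs 1-2, 3-4 and 5-6 of mak3. In WT it was at 3.50, 3.53 and 3.61. All 3 mak3 samples were thus below all 3 WT samples, as for 4.07% of all probes. On this normalized scale LHB1B2, CHLM and AT1G74470 were each lowest in mak3 pair 1-2. As deposited, CHLM was lowest in mak3 pair 5-6, at 0.599, and AT1G74470 in WT pair 1-2, at 1.55. How many of all probes were lowest in mak3 pair 1-2 was not counted.

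A further 3 probes name several genes of the lists at once, so their names are less certain. The probe for HEMB1 and HEMB2, aminolevulinate dehydratases, was at -0.37 and lower in mak3 in all 3 pairs. After normalization 36.5% of all probes had a difference of one sign in all 3 pairs. With the values as deposited this probe was at -0.65, where the median of all probes was -0.19. The probe for HEME1 and HEME2, uroporphyrinogen decarboxylases, was at 0.07 (-0.10 with the values as deposited), and that for LHCB4.1, LHCB4.2 and LHCB4.3, minor antenna proteins of photosystem II, at -0.20. In limma 0 of these 3 passed. With the array pair as a block the probe for HEMB1 and HEMB2 was under 0.05 before adjustment (limma adjusted p = 0.355), as were 13.4% of all probes.

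**Figure D4:**
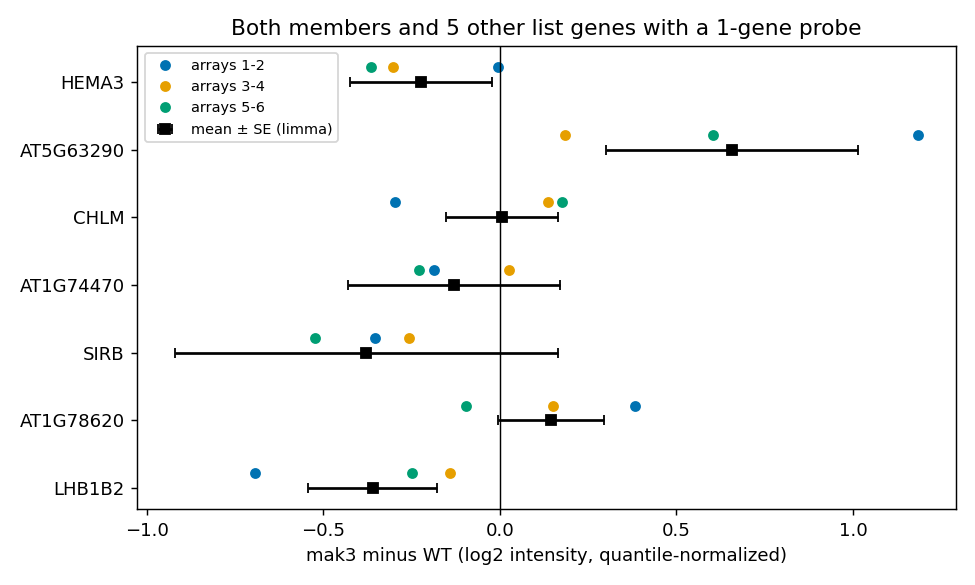
The mak3 minus WT difference (horizontal axis, log2 intensity, quantile-normalized) of the 7 list genes with a 1-gene probe, with squares and bars for the mean and its SE in limma (n = 3 against 3) and coloured points for the 3 array pairs. CHLM and AT1G74470 sit at 0.01 and -0.13, with points on both sides of 0, and AT5G63290 lies farthest from 0, at 0.66.

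The processing moved the genotype difference of both genes across 0. The plot of the difference under each processing shows CHLM near 0 wherever the arrays were brought to a common level, except for array weights, which gave 0.12. AT1G74470 was at -0.13 with quantile normalization, at -0.05 with cyclic loess and at 0.21 with a common median. Over the 27 alternatives run for each gene, CHLM ranged from -0.20 to 0.16 and AT1G74470 from -0.20 to 0.21, with a smallest adjusted p in limma of 0.514 for CHLM and 0.143 for AT1G74470.

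**Figure D5:**
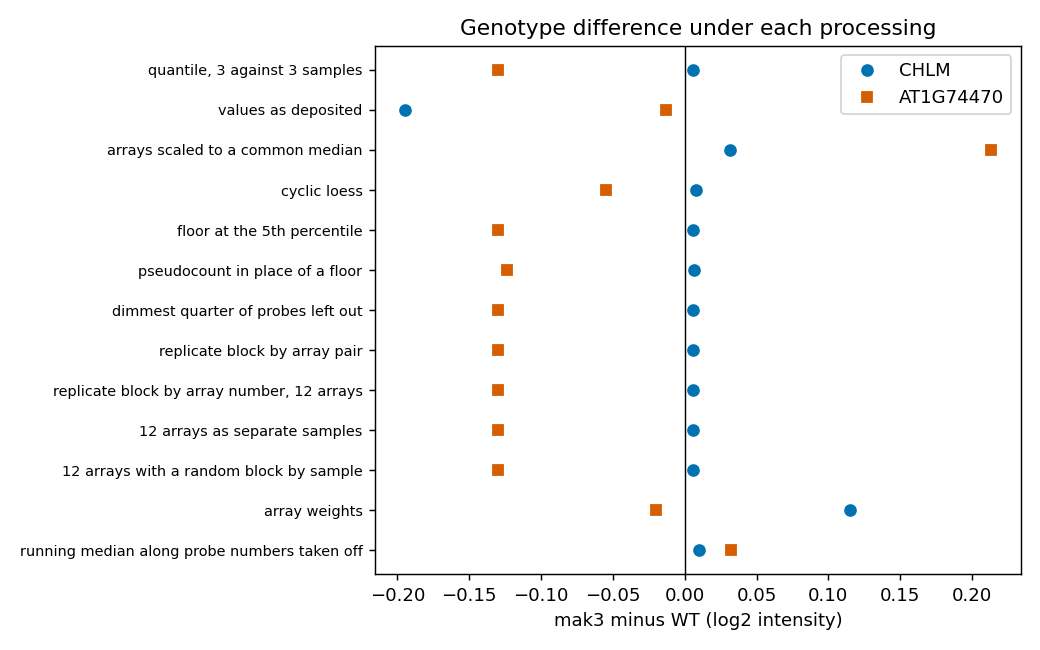
The mak3 minus WT difference (horizontal axis, log2 intensity) of CHLM (blue circles) and AT1G74470 (orange squares) under quantile normalization and 12 other ways of processing the arrays, listed down the page. CHLM leaves the neighbourhood of 0 with the values as deposited, at -0.20, and with array weights, at 0.12, and AT1G74470 is highest after scaling the arrays to a common median, at 0.21.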

How the data were processed

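The deposited values are 1 linear intensity per probe and array. The sources used here do not say how the authors scanned, background-corrected and scaled these intensities, and give no background signal, so scale and centring stay unknown. Genes were named through the platform annotation with symbols brought up to date by gene identifier: 692 probes name 1 gene, 870 several, and 1877 are unnamed here. Array medians differed by 44.1%, so quantile normalization was applied (limma 3.58.1, R 4.3.3). Values under the 1st percentile of positive values (0.0412) were set to it, and log2 was taken. Repeat readings were averaged, and each probe was tested with lmFit and eBayes (two-sided, Benjamini-Hochberg over 3439 probes, threshold 0.05). WT and mak3 samples of a pair deviated together (r = 0.602, 0.557 and 0.739), so the numbers were taken to pair them, as judged from the data. The same correlations for unlike pair numbers were not computed, so other matchings were not compared. The fit was checked on simulated data. Both genes are named always, list genes if a probe names them, and the 3 most alike 1-gene probes by Pearson's r. Members and lists were chosen with earlier results of these data known. Alternatives covered normalization, floor, dim probes, repeats, blocks, weights, probe number and left-out arrays. Precision is limited by the number of arrays.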

Additional observations from a re-analysis of the deposited data

How the results depend on the processing

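No call on CHLM or AT1G74470 changed under any of the 27 alternatives run for each, and all reversals are of differences that did not pass. CHLM was at -0.20 with the values as deposited, and from -0.079 to 0.157 when arrays or pairs were left out. AT1G74470 was at 0.21 with median scaling, at 0.032 with the running median taken off, and from -0.20 to -0.08 with arrays or pairs left out. The excess of CHLM over AT1G74470 was -0.18 as deposited and with median scaling, -0.022 with the running median taken off, and from -0.00054 to 0.264 with arrays or pairs left out. It was not computed with array weights or a random block. With the array pair as a block, limma gave CHLM 0.01 ± 0.13 and AT1G74470 -0.13 ± 0.08 (SE, n = 3 pairs, adjusted p = 1 and 0.486), with 95% intervals from -0.42 to 0.43 and from -0.38 to 0.12. That block changed no call, with 0 probes called and 462 (13.4%) at an unadjusted p under 0.05. Taking the 12 arrays as separate samples, which counts each sample more than once, called 24 probes, and 415 with the array number as a block, neither gene among them. The count of probes called between pairs went from 0 to 620 over 21 alternatives, being 620 with cyclic loess, 513 without the dimmest 25% of probes, 255 with a floor at the 5th percentile, and up to 157 with an array left out. For AT1G74470 that test passed in 1 of the 21, without the dimmest 25% of probes (adjusted p = 0.0474). Signal over background could not be judged, and 6 samples limit every value.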
